A study of Mus musculus with 24 samples.

Results

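MC38-DKO and MC38-COSMC KO are CRISPR-Cas9 lines of MC38, a C57BL/6 mouse colon cancer cell line. In MC38-COSMC KO the target gene is C1galt1c1 (COSMC), and in MC38-DKO both CMAS and COSMC are labelled as targets, so the comparison addresses what targeting CMAS adds in cells that also carry the COSMC target. It takes 6 of the 24 RNA sequencing samples of the series, 3 from either line, harvested at passages 4, 5 and 6 and grown with puromycin. Of the 52636 genes in the table, the 22008 with at most 4 zeros among these 6 samples were tested. The 6 samples are set beside MC38-CMAS KO, in which CMAS alone was targeted, and MC38-MOCK#1, which received CRISPR-Cas9 without a target, each again with 3 samples of passages 4, 5 and 6. The methods describe the COSMC-targeted line as a population sorted in bulk on its binding of a GalNAc-specific lectin. How MC38-DKO was selected, and whether it is 1 clone or a mixture, is not given in the sources used here.

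CMAS joins sialic acid to CMP in the nucleus, and CMP-sialic acid is the donor that every sialyltransferase uses, so cells without CMAS cannot sialylate their glycans. The product of C1galt1c1, COSMC, is the chaperone of the T-synthase C1GALT1, which adds galactose to the Tn antigen (GalNAc on serine or threonine). Without COSMC the Tn antigen is not extended with galactose. The study of MC38-COSMC KO also names additions of sialic acid, which gives sialyl-Tn, and of N-acetylglucosamine to the Tn antigen. From flow cytometry that it does not show, that study took the Tn antigen of its COSMC-targeted cells to be unsialylated.

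The values are read counts that the authors scaled per library and rounded, called normalized counts here. The depth behind them was estimated at 7135450 reads in MC38-DKO sample 1, the shallowest of the 6, and at 10938787 to 14370453 reads in the other 5, so a single read amounted to 0.805 to 1.55 normalized counts. A gene was called when its adjusted p from limma, on log2 of the value plus 1, was below 0.05. Fold changes below are on that log2 scale, are positive where MC38-DKO was higher, and understate the change of genes with few counts. Each line is represented by 3 passages, so the p-values measure the spread between passages of 1 line and not between independently made lines. In bulk samples fewer cells that express a gene and less RNA per cell cannot be told apart.

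RNA of the CMAS target was lower in MC38-DKO, as its label states. Cmas, at chr6:142756686-142775714 (GRCm38), had 142, 135 and 122 normalized counts in the MC38-DKO samples and 350, 356 and 322 in the MC38-COSMC KO samples, with no overlap between the lines (log2 fold change -1.36, SE 0.10, adjusted p = 0.0003). MC38-CMAS KO, at 117, 93 and 126, lay in the same range as MC38-DKO, and MC38-MOCK#1 had 416, 384 and 386. RNA of the COSMC target was not called between the lines. C1galt1c1, at chrX:38630785-38635087, had 206, 166 and 175 normalized counts in MC38-DKO and 145, 163 and 124 in MC38-COSMC KO (0.34, SE 0.14, adjusted p = 0.175), beside 215, 181 and 152 in MC38-CMAS KO and 242, 220 and 251 in MC38-MOCK#1. C1galt1, the T-synthase itself, ranged from 320 to 367 in MC38-DKO and from 302 to 344 in MC38-COSMC KO (0.07, SE 0.09, adjusted p = 0.735). From the RNA of these genes alone MC38-DKO and MC38-CMAS KO cannot be told apart, and Cas9 can disrupt a gene while its RNA level stays the same.

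MC38-DKO and MC38-COSMC KO differed in a broad part of the transcriptome. limma called 2838 of 22008 genes (12.9%), of which 1353 were higher in MC38-DKO (6.15% of genes tested) and 1485 were lower (6.75%). Among the 13506 genes with a mean of at least 10 normalized counts 19.6% were called. The shares called in gene lists below are to be read beside both. All 2838 had values that did not overlap between the lines, whereas 6199 genes (28.2%) did not overlap in all. The median absolute log2 fold change of called genes was 0.56, and 366 were higher and 428 lower by more than 1. The largest changes were mostly losses: 47 called genes were lower by more than 4 and 3 were higher. 18 called genes had a mean of at most 3 normalized counts in MC38-DKO and of at least 50 in MC38-COSMC KO, and 1 gene, Pex5l, had the reverse. Without a sample the number of called genes was smaller: 1552, 1050 and 1291 without MC38-COSMC KO sample 1, 2 or 3, and 2154, 1274 and 1702 without MC38-DKO sample 1, 2 or 3.

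The largest losses among protein-coding genes with a mean of at least 50 normalized counts in the higher line were near silencing. Pet2 had 0 normalized counts in all 3 MC38-DKO samples and 374, 323 and 299 in MC38-COSMC KO, at least 99.6-fold lower against a floor of 3 reads per library. Timp3, an inhibitor of metalloproteases that is bound to the extracellular matrix, had 5, 3 and 1 against 761, 943 and 877 (log2 fold change -7.88, SE 0.37, adjusted p = 3.7e-05). Lack of overlap between the lines was a condition of the selection. Sorcs2, a sorting receptor of the Vps10p family, fell from 156, 202 and 205 to 0, 1 and 1, and Stxbp2, a syntaxin-binding protein of vesicle fusion, fell from 213, 174 and 199 to 0, 2 and 2. Colec12, a scavenger receptor with a collagen-like domain, fell from 184, 160 and 143 to 0, 1 and 2. Hspa12b and Arsj fell from 66 to 91 and from 45 to 65 normalized counts to at most 1. Magea5, a member of a germline gene family whose close copies can share reads, had 85, 36 and 35 in MC38-COSMC KO and 0 in every MC38-DKO sample, at least 15.6-fold lower.

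Other large losses left a measurable level. Aqp1, a water channel, had 19, 20 and 20 normalized counts in MC38-DKO and 1025, 800 and 730 in MC38-COSMC KO (-5.35, SE 0.15, adjusted p = 5.91e-06). Pacs1, a protein of trans-Golgi sorting, had 11, 6 and 7 against 592, 532 and 508. Sulf2, a sulfatase that edits heparan sulfate at the cell surface, had 8, 22 and 16 against 770, 673 and 749. The ratios of the line means of Aqp1, Pacs1 and Sulf2 were 43.3, 68.0 and 47.7.

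The largest gains, by the same limits, started from low levels. Ass1, which makes argininosuccinate in arginine synthesis, had 400, 510 and 475 normalized counts in MC38-DKO and 35, 36 and 52 in MC38-COSMC KO (3.48, SE 0.18, adjusted p = 7.12e-05). Gm18336 on chromosome X had 592, 786 and 623 against 93, 54 and 43. Kcnj2, an inward rectifier potassium channel, had 81, 62 and 74 against 2, 6 and 4, and Pex5l had 56, 61 and 43 against 1, 0 and 3. Sphk1, the kinase that makes sphingosine 1-phosphate, had 40, 59 and 53 against 4, 8 and 5. Plscr2, Tfr2, Qrfp and 2900026A02Rik completed the 12 largest gains with Ovol2, Pdpn and Col4a6, and the ratios of line means of these 7 genes ran from 6.89 to 19.1. The selection took only genes whose values in all 3 MC38-DKO samples lay above those of all MC38-COSMC KO samples.

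**Figure D1:**
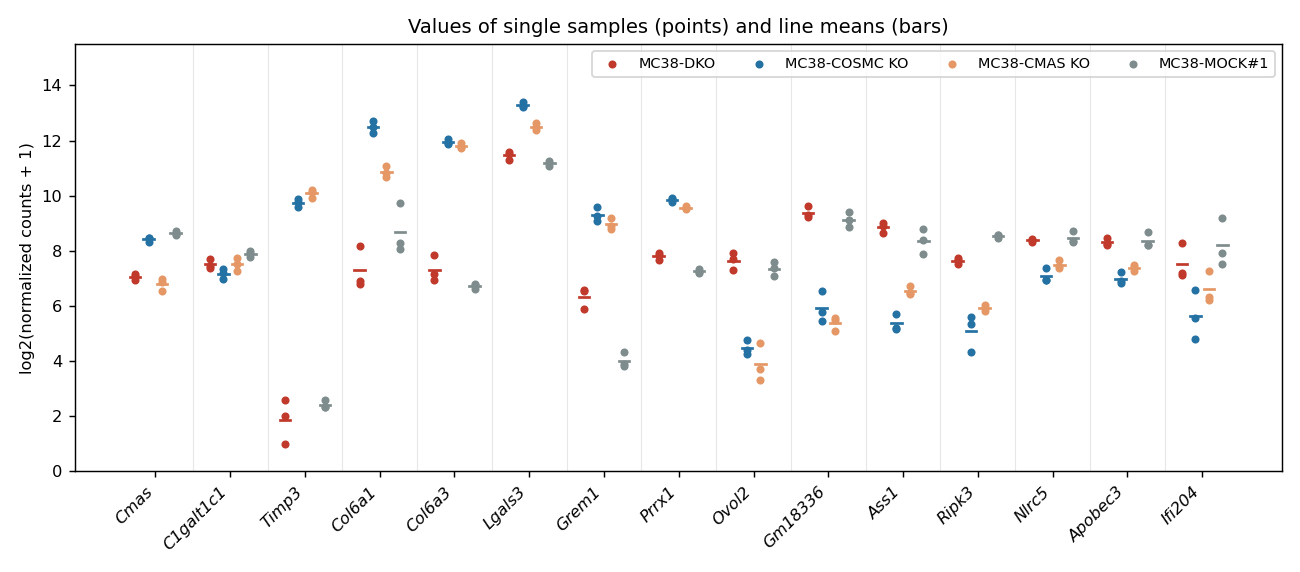
Normalized counts of single samples (points) and line means (bars) of 15 genes, as log2 of the value plus 1, in MC38-DKO, MC38-COSMC KO, MC38-CMAS KO and MC38-MOCK#1. Timp3, Col6a1, Col6a3, Lgals3, Grem1 and Prrx1 were lower and Ovol2, Gm18336, Ass1, Ripk3, Nlrc5, Apobec3 and Ifi204 higher in MC38-DKO than in MC38-COSMC KO.

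Genes of the extracellular matrix were lower in MC38-DKO more often than higher. Collagens form the fibrils and networks of the matrix. Of 33 tested collagen genes 7 were called lower and 4 higher (33.3% called). The median log2 fold change was -0.28 (-0.28 with genes at 0 in a line set to their bound), beside 0 for all genes tested. The 3 chains of collagen VI, a beaded filament at the cell surface, fell together. Col6a1 had 288, 110 and 118 normalized counts in MC38-DKO and 6724, 5817 and 4893 in MC38-COSMC KO (-5.20, SE 0.33, adjusted p = 0.00016), Col6a2 had 159, 58 and 46 against 2333, 1966 and 1445, and Col6a3 had 141, 121 and 228 against 3829, 4292 and 3765. Col6a1 and Col6a2 lie on chromosome 10 and Col6a3 on chromosome 1, and the ratios of the line means were 33.8, 21.8 and 24.3. Col4a6, a chain of basement membrane collagen IV, went the other way, from 19, 24 and 13 to 146, 121 and 119. The summed values of the collagen genes ran from 17209 to 20151 in MC38-DKO and from 35531 to 37698 in MC38-COSMC KO.

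Of 31 matrix glycoproteins and proteoglycans, 10 were called lower and 1 higher (35.5% called, median -0.47, or -0.39 at the bound). Fbln2, a fibulin of elastic fibres, had 8, 5 and 11 normalized counts in MC38-DKO and 124, 113 and 127 in MC38-COSMC KO. Sparc, a collagen-binding matricellular protein, had 389, 372 and 410 against 1425, 1301 and 1355 (-1.80, SE 0.07, adjusted p = 1.86e-05), and Loxl3, a lysyl oxidase that cross-links collagen, had 67, 49 and 70 against 231, 219 and 177. Tnc, tenascin C, was the exception, with 14, 14 and 11 against 2, 2 and 4. Its mean of 2.67 in MC38-COSMC KO lay below the floor of 3 reads per library, 2.75 normalized counts in that line. Its call was lost in 3 of the 6 fits that left out 1 sample. The summed values of these genes ran from 38508 to 45811 in MC38-DKO and from 52828 to 68037 in MC38-COSMC KO, without overlap.

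Of 25 matrix proteases and their inhibitors, 6 were called lower and 1, the urokinase receptor Plaur, higher (28.0% called, median -0.59). Apart from Timp3 the losses included Mmp16, a membrane-bound metalloprotease, at 5, 7 and 6 against 118, 136 and 120, and Mmp2, a gelatinase, at 0, 0 and 2 against 16, 5 and 4. Mmp16 and Timp3, the inhibitor, were thus lower side by side. Mmp2 had a mean of 0.67 in MC38-DKO, below the floor of 3 reads per library. Its call was lost in each of the 6 fits that left out 1 sample. Integrins, the receptors of matrix proteins, were mixed: 5 of 18 were called higher and 3 lower (44.4% called). Itgb8, which takes part in activating TGF-beta, had 0, 0 and 1 against 79, 50 and 38, whereas Itga3, a laminin receptor chain, had 426, 417 and 452 against 250, 270 and 251. Leaving out single samples left between 4 and 5 calls of a lower level among proteases and inhibitors, between 7 and 9 among matrix glycoproteins and between 5 and 7 among collagens. The higher integrins fell from 5 to between 1 and 3, with 2, 1 and 1 without MC38-COSMC KO sample 1, 2 or 3 and 2, 1 and 3 without MC38-DKO sample 1, 2 or 3, and the higher collagens fell from 4 to 1 without MC38-COSMC KO sample 2 or 3 or MC38-DKO sample 2 or 3.

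Regulators of the epithelial to mesenchymal transition, in which epithelial cells lose their junctions and gain motility, leaned the same way. Of 20 tested, 5 were called lower and 2 higher (35.0% called, median -0.38, or -0.33 at the bound). Prrx1, a mesenchymal homeobox factor, had 204, 239 and 231 normalized counts in MC38-DKO and 961, 879 and 939 in MC38-COSMC KO (-2.04, SE 0.09, adjusted p = 2.45e-05). Zeb1, a repressor of epithelial genes, had 108, 102 and 113 against 348, 286 and 297, and S100a4, a calcium-binding protein of motile cells, had 282, 282 and 367 against 958, 621 and 664. Ovol2, a factor that represses Zeb1 and keeps cells epithelial, moved in the other direction, from 26, 20 and 18 to 159, 205 and 239 (3.17, SE 0.22, adjusted p = 0.0002). The other gene called higher was Cdh2, N-cadherin, a cadherin of mesenchymal cells (0.68). Epithelial marker genes stayed near 0. Epcam and Cdx2 had 0 in all 6 samples, Krt8 had at most 4 normalized counts, and the sum of 8 epithelial markers ran from 3 to 9 in MC38-DKO and from 4 to 7 in MC38-COSMC KO. Vil1 was the only one of them called, at 5, 6 and 2 against 0, 1 and 0. The colon cancer line thus had these defining epithelial markers at or near 0 in both of its derivatives.

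The lists of glycosylation genes were short, and the shares called differed between them. Of 10 tested genes of sialic acid synthesis and transport, Cmas and Renbp, the renin-binding protein that converts N-acetylglucosamine and N-acetylmannosamine, were called, both lower. Renbp had 149, 124 and 123 against 356, 302 and 291 (-1.25, SE 0.13, adjusted p = 0.000989). Of 10 tested sialyltransferases, 3 were called higher and 1 lower. St3gal6 had 226, 237 and 187 normalized counts in MC38-DKO and 83, 78 and 79 in MC38-COSMC KO (1.42, SE 0.13, adjusted p = 0.000669), while St6galnac6 and St3gal5, which act on gangliosides, rose by 0.45 and 0.42 and St3gal4 fell by 0.30. The calls of these last 3 were each lost in at least 5 of the 6 fits that left out 1 sample.

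Of 17 tested genes that start O-glycans or build their cores, Gcnt4, a core 2 branching enzyme, and B3gnt3, which extends core 1, were called, both higher, a share of 11.8% near the 12.9% of all genes. Gcnt4 had 81, 77 and 73 against 26, 31 and 31, and B3gnt3 had 502, 496 and 501 against 252, 205 and 197. Both galectins that were called fell, of 8 tested (25.0% called). Lgals3, a lectin that binds galactose-containing glycans at the cell surface, had 2518, 3062 and 2897 normalized counts in MC38-DKO and 10744, 9563 and 9691 in MC38-COSMC KO (-1.83, SE 0.09, adjusted p = 3.7e-05). Lgals1 had 9940, 11313 and 10811 against 16540, 15084 and 16166. Of 11 mucin-like O-glycoproteins, Pdpn (podoplanin) and Podxl were called higher and Cd34 lower (27.3% called). Pdpn had 43, 107 and 88 against 9, 8 and 14, and Podxl had 519, 593 and 509 against 207, 249 and 243.

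MHC class I presents peptides of the cell's own proteins to CD8+ T cells, and its genes were called higher more often than lower. Of 20 tested genes of class I molecules and peptide loading, 7 were called higher and 1 lower (median 0.39). Many of these genes were named in the study of MC38-COSMC KO, so the list is not independent of these samples. Nlrc5, the transactivator of class I genes, had 344, 321 and 337 normalized counts in MC38-DKO and 166, 122 and 121 in MC38-COSMC KO (ratio of means 2.45, adjusted p = 0.00121). Tapbpl, an editor of loaded peptides, had 242, 234 and 212 against 140, 121 and 113, and Tapbp (tapasin), which holds class I molecules at the peptide transporter, had 2897, 2135 and 2312 against 1609, 1355 and 1109. Erap1, which trims peptides in the endoplasmic reticulum, had 1020, 753 and 825 against 602, 543 and 512 (0.64, SE 0.12, adjusted p = 0.0124). The other gains were B2m, H2-K1 and H2-D1, at 0.59, 0.48 and 0.38, and Calr (calreticulin), a chaperone of loading, fell by 0.24, all 4 named after their values were seen. Of 9 tested beta subunits of the proteasome and immunoproteasome 2 were called, both higher (22.2% called). The immunoproteasome subunit Psmb9 had 56, 59 and 43 against 35, 23 and 19 (1.04, SE 0.28, adjusted p = 0.046), and Psmb7 rose by 0.30. The calls of Psmb9 and Psmb7 were each lost in 5 of the 6 fits that left out 1 sample. Without a sample in turn, 7, 2 and 2 class I genes were called higher without MC38-COSMC KO sample 1, 2 or 3, and 4, 6 and 4 without MC38-DKO sample 1, 2 or 3.

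Interferon-stimulated genes, which cells switch on after sensing viruses or cytokines, leaned the same way but varied widely between samples. Of 51 tested, 49 had a log2 fold change above 0 and 2 below (median 0.61, where 10620 of all 22008 genes were above 0), and 7 were called, all higher (13.7%, near the share of all genes). Apobec3, a cytidine deaminase that restricts retroviruses, had 303, 298 and 352 against 151, 118 and 112 (1.32, SE 0.14, adjusted p = 0.00121). Ifi204, a DNA sensor, had 310, 144 and 139 against 94, 46 and 27, and Ifi205 had 110, 51 and 38 against 12, 24 and 3 (2.48, SE 0.67, adjusted p = 0.0485). Both belong to a cluster of similar genes among which reads can be split. Cmpk2, a mitochondrial kinase of antiviral responses, had 93, 41 and 42 against 27, 18 and 12. Sample 1, from passage 4, was the highest of its line for 42 of the 51 genes in MC38-DKO and for 42 in MC38-COSMC KO, compared with 32.6% and 35.3% of all genes tested. The sum of the 51 genes was 17804, 14451 and 13056 in MC38-DKO and 13586, 11024 and 10347 in MC38-COSMC KO, higher in MC38-DKO at each passage but overlapping across passages. Called genes fell from 7 to between 1 and 4 when single samples were left out. Without MC38-COSMC KO sample 1, 2 or 3 they numbered 4, 1 and 2. Without MC38-DKO sample 1, 2 or 3 they numbered 3, 1 and 2. With the replicate number, which is also the passage, as a block in the fit 12 were called, all higher. Of 13 interferon-inducible GTPases 13 were above 0 (median 0.95) and limma called 0, with 4 at an unadjusted p below 0.05. Irgm1, the most abundant, had 531, 295 and 269 against 323, 220 and 196.

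Interferon response factors bind a repeat of GAAA letters, so the start sites of the named class I and interferon genes were searched on either strand for GAAA, any 2 bases and GAAA again. The windows are RefSeq promoters of GRCm38.p6, from 250 bases before to 50 after the start of a gene. Of the 14 genes called higher in these 2 lists 11 had a window, and 5 of the 11 (45.45%) held the letters. For comparison, 48.15% of the 54 tested genes of both lists with a window held them, 4.77% of all genes called higher, 3.25% of those called lower and 3.44% of all 32851 windows. The match describes the letters and says nothing on binding. The 5 are Apobec3, B2m, Bst2, Erap1 and Ifi205. The windows of 3 of them, Erap1 for peptide trimming and Apobec3 and Ifi205 for the interferon group, are shown on the strand of the gene, with the matches in capitals: Erap1 at chr13:74639603-74639902 on the plus strand, Apobec3 at chr15:79892158-79892457 on the plus strand and Ifi205 at chr1:174031706-174032005 on the minus strand.
Erap1: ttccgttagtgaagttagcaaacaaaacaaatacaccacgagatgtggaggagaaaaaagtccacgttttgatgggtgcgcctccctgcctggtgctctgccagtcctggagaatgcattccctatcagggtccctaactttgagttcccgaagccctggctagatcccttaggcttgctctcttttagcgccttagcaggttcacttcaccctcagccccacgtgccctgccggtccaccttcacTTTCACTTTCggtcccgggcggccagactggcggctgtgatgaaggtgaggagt
Apobec3: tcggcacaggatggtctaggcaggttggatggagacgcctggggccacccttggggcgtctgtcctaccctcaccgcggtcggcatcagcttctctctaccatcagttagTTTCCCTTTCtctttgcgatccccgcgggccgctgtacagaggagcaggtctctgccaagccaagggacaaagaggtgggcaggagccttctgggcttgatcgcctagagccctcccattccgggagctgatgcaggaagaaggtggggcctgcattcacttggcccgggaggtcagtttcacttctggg
Ifi205: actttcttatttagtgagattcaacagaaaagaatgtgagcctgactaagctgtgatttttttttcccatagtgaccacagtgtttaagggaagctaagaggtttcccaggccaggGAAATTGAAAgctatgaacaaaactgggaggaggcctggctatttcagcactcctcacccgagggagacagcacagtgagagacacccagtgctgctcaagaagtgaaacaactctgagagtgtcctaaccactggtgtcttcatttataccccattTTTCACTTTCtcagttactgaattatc
Erap1 and Apobec3 each held 1 match, and Ifi205 held 2.

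Factors that relay interferon and cytokine signals were called at a share near that of the whole table: 2 of 28 tested genes were called higher and 2 lower (14.3%, beside 12.9% of all genes). Irf1, an interferon-induced activator of class I genes, had 711, 630 and 814 normalized counts in MC38-DKO and 515, 444 and 477 in MC38-COSMC KO, and Stat3 rose by 0.27. Stat6, the relay of interleukin 4, had 996, 1036 and 1027 against 1616, 1585 and 1541 (-0.63, SE 0.06, adjusted p = 0.000623), and Stat5b had 547, 546 and 537 against 820, 817 and 732. Of 15 sensors of foreign RNA and DNA and their adaptors, Tbk1, the kinase that activates IRF3, was called lower (557, 491 and 484 against 825, 842 and 785) and Mavs higher (0.25), 13.3% of the group. In the NF-kappaB group 2 of 14 genes (14.3%) were called, Traf1 at 206, 310 and 266 against 60, 71 and 93 and Nfkbie at 98, 70 and 87 against 49, 51 and 58. Stat6 and Tbk1 lie on chromosome 10, and their calls were lost once chromosome medians were removed. The calls of Stat3, Mavs and Nfkbie were lost in each of the 6 fits that left out 1 sample.

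Chemokines and cytokines, which draw and steer leukocytes, changed in both directions, with 3 of 23 called higher and 3 lower (26.1% called). Ccl7, which attracts monocytes, had 22, 17 and 19 normalized counts in MC38-DKO and 168, 176 and 160 in MC38-COSMC KO (-3.06, SE 0.17, adjusted p = 8.47e-05). Its neighbour in function Ccl2 fell by 1.14, and Cxcl1, which attracts neutrophils, had 142, 215 and 186 against 321, 437 and 457. Among the gains, Il7, a survival factor of T cells, had 77, 85 and 46 against 27, 20 and 19. Cxcl11, a ligand of CXCR3, had 8, 5 and 2 against 0 in every MC38-COSMC KO sample, at least 1.82-fold higher. Of 16 tested immune ligands of tumour cells limma called 0, with 2 at an unadjusted p below 0.05, and Cd47, the signal that restrains phagocytosis, had 500, 461 and 439 against 445, 323 and 315. Of 7 tested genes of MHC class II and its helpers it called 0, with 3 at an unadjusted p below 0.05.

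Genes of inflammatory cell death were called higher for 3 of 12 tested genes and lower for 1 (33.3% called). Ripk3, the kinase of necroptosis, had 184, 211 and 204 normalized counts in MC38-DKO and 47, 40 and 19 in MC38-COSMC KO (2.56, SE 0.31, adjusted p = 0.00195). Gsdme, a pore-forming gasdermin cut by caspase 3, had 333, 384 and 308 against 77, 66 and 71, and Casp1, the inflammasome caspase, had 111, 67 and 75 against 38, 21 and 29. Gsdmd, the gasdermin that CASP1 cleaves, went the other way, at 20, 15 and 11 against 52, 50 and 29. Of the 6 fits that left out 1 sample, 4 lost the call of Casp1 and 5 that of Gsdmd.

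Ligands and antagonists of the BMP family changed in both directions. Of 35 genes of BMP and TGF-beta signalling 5 were called higher and 4 lower (25.7% called). Grem1, a secreted BMP antagonist, had 59, 95 and 92 normalized counts in MC38-DKO and 544, 617 and 761 in MC38-COSMC KO (-2.97, SE 0.20, adjusted p = 0.000199). Bmp5 had 2, 2 and 1 against 41, 29 and 19. Bmper, a BMP-binding regulator, rose from 12, 12 and 9 to 87, 66 and 84 (2.74, SE 0.24, adjusted p = 0.00061), and Bmp4 from 0 in every sample to 6, 6 and 4, at least 1.94-fold. Of 34 immediate early and feedback genes of the MAPK pathway 6 were called lower and 1 higher (20.6% called, median -0.22). That share lay near the 19.6% of the 13506 genes that averaged 10 or more normalized counts. Of the 34 genes, 9 had a log2 fold change above 0 and 25 below. The 7 calls fell to 3, 2 and 6 without MC38-COSMC KO sample 1, 2 or 3. Without MC38-DKO sample 1, 2 or 3 they fell to 4, 2 and 3. Phlda1 had 314, 319 and 286 against 804, 833 and 567, Ier2 had 686, 945 and 813 against 1530, 2221 and 1218, and Spred3, an inhibitor of RAS signalling, had 105, 90 and 103 against 210, 201 and 171. Areg, an EGF receptor ligand, rose from 150, 131 and 98 to 321, 278 and 235. Of 15 tested Wnt targets 2 were called lower and 1 higher, a share near the 19.6% of the more abundant genes. Myc fell from 1925, 2192 and 3018 to 926, 1119 and 1584 and Tcf7 from 159, 174 and 168 to 102, 101 and 60, while Apcdd1 rose by 0.69. Each of these 3 calls was lost in 5 of the 6 fits that left out 1 sample. Those of Tcf7 and Apcdd1 were also lost with the replicate number as a block.

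Stress, p53 and cell cycle genes had more calls of a lower than of a higher level. Of 30 genes of the endoplasmic reticulum stress and amino acid response 9 were called lower and 2 higher (36.7% called, median -0.12). Slc7a11, the cystine importer, had 1068, 686 and 654 normalized counts in MC38-DKO and 1977, 1601 and 1273 in MC38-COSMC KO, Ddit3 (CHOP) had 263, 231 and 347 against 431, 521 and 728, and Ddit4, an inhibitor of mTORC1, had 646, 712 and 836 against 1401, 1194 and 1328. Vldlr, a lipoprotein receptor, had 757, 564 and 607 against 1157, 1023 and 971. Of 22 p53 pathway genes 6 were called lower and 2 higher (36.4% called). They were led by Eda2r, a receptor of the TNF family, at 34, 35 and 17 against 172, 167 and 130 (-2.46, SE 0.29, adjusted p = 0.00171). Phlda3, Gdf15 and Sesn1 fell by 0.94, 0.84 and 0.58. Of 40 cell cycle genes 6 were called lower and 3 higher (22.5% called, median -0.04). That share lay near the 19.6% of the 13506 genes that averaged 10 or more normalized counts. Of the 40 genes, 18 had a log2 fold change above 0 and 22 below. The largest called change was that of Cdkn2c, a CDK4 inhibitor (-0.58). Cdk4 had 3603, 4018 and 4085 against 5413, 5499 and 5709, Cdk2 had 1116, 1051 and 1127 against 1584, 1605 and 1593, and Ccne1, the cyclin that activates CDK2, fell by 0.52. Ddit3, Ddit4, Sesn1, Cdk2 and Cdk4 lie on chromosome 10, and with chromosome medians removed Ddit4 alone kept its call among these. The count of lower stress genes fell from 9 to 2, 1 and 2 without MC38-COSMC KO sample 1, 2 or 3 and to 7, 2 and 5 without MC38-DKO sample 1, 2 or 3. For the p53 list the excess of lower genes was absent without MC38-COSMC KO sample 1, 2 or 3, with 2 lower and 2 higher, 1 and 1, and 2 and 2, and for the cell cycle it was absent after scaling to the same total, with 6 and 6.

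Metabolic groups were divided. Of 32 genes of cholesterol and fatty acid synthesis 6 were called lower and 4 higher (31.2% called, median -0.03). Scd2, a fatty acid desaturase, had 20978, 15896 and 15927 normalized counts in MC38-DKO and 30176, 27828 and 24173 in MC38-COSMC KO, and Srebf2, the main activator of cholesterol synthesis, fell by 0.40. Acss2, which makes acetyl-CoA from acetate, rose from 784, 546 and 476 to 1905, 1184 and 1254. Of 34 genes of glycolysis and the hypoxia response 5 were called lower and 4 higher (26.5% called). The glucose transporters moved apart. Slc2a3 had 5, 2 and 1 against 13, 11 and 19, and Slc2a1 had 1273, 967 and 993 against 830, 729 and 640. Bnip3l rose by 0.70 and Ero1l fell by 0.58. The call of Slc2a1 was lost in each of the 6 fits that left out 1 sample. Those of Slc2a3 and Ero1l were lost in 5 and that of Bnip3l in 1. Slc2a3 had a mean of 2.67 in MC38-DKO, below the floor of 3 reads per library.

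Imprinted genes, which are normally transcribed from 1 parental copy, held near on and off differences. Of 18 tested, 4 were called higher and 4 lower (44.4% called, median -0.26, or 0 at the bound). Zrsr1 had 45, 27 and 28 normalized counts in MC38-DKO and 3, 2 and 3 in MC38-COSMC KO (3.20, SE 0.36, adjusted p = 0.0015), and Snrpn had 37, 33 and 35 against 4, 5 and 2. Both are expressed from the paternal copy in mouse tissues. Peg13 had 3, 1 and 1 against 6, 13 and 16, and Rian had 0 in MC38-DKO against 2, 3 and 4, so both rested on few reads. Zrsr1 and Peg13 lie inside other genes, and the strand setting of the counting is not given in the sources used here. In MC38-CMAS KO Snrpn had 4, 0 and 1 and Zrsr1 0, 1 and 2, whereas MC38-MOCK#1 had 30, 31 and 20 and 27, 33 and 16. Of 31 protocadherin and Hox genes 5 were called higher and 3 lower (25.8% called). Pcdh18 had 406, 375 and 582 against 196, 142 and 170, and Pcdh7 had 184, 198 and 207 against 89, 79 and 78. Hoxb8 had 94, 72 and 70 against 49, 37 and 34, and Pcdhb21 had 5, 3 and 3 against 13, 14 and 11.

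**Figure D2:**
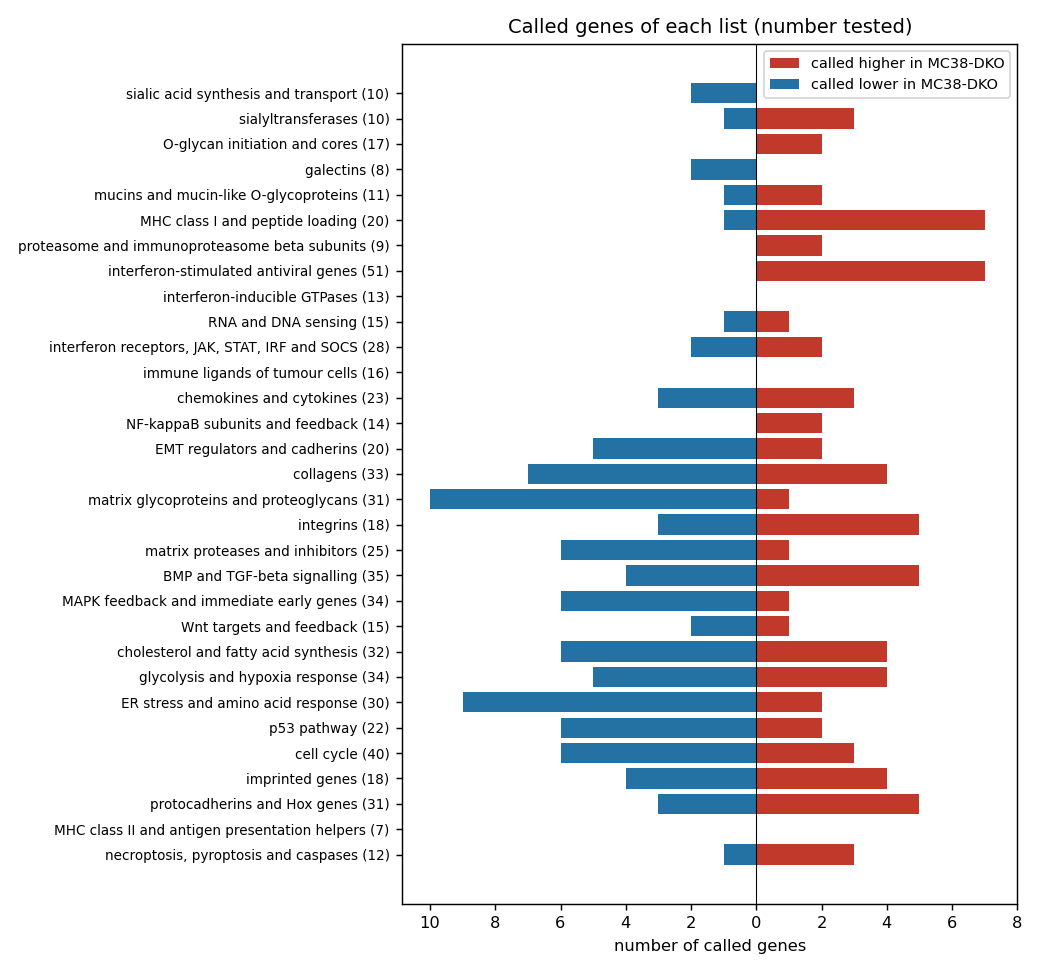
Number of genes called higher (right) and lower (left) in MC38-DKO than in MC38-COSMC KO in each of 31 gene lists, with the number tested in parentheses. Matrix glycoproteins (10 lower, 1 higher) and the class I list (7 higher, 1 lower) are among the most one-sided.

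Markers of other cell types were low in both lines. The sum of 6 immune markers ran from 8 to 12 normalized counts in MC38-DKO and from 4 to 14 in MC38-COSMC KO, with Cd3e and Itgam at 0 in all 6 samples, and that of 4 endothelial markers from 0 to 3 and from 3 to 7. Fibroblast markers summed to 542 to 667 and 575 to 726, nearly all of it Pdgfra, at 636, 502 and 499 against 615, 490 and 481, while Thy1 was at 0 throughout. Col1a1, at 26, 20 and 34 against 52, 47 and 47, and Col1a2, at 5, 18 and 26 against 53, 34 and 62, did not overlap between the lines but were not called (adjusted p = 0.0551 and 0.0757), and the median of the 4 tested fibroblast markers was -1.03. Their part in the matrix losses was not tested. The 13 mitochondrially encoded mRNAs are listed at 0 in every sample, so they give no measure of RNA quality.

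The CMAS target was also compared in the background without the COSMC target, in MC38-CMAS KO against MC38-MOCK#1. Most genes called in MC38-DKO against MC38-COSMC KO had the opposite sign there. These comparisons share no sample. In MC38-CMAS KO against MC38-MOCK#1, limma called 1268 of 22024 genes (5.76%). Of the 2838 genes called in MC38-DKO against MC38-COSMC KO, 2819 could be compared, and 2532 had the opposite sign there and 287 the same. Both comparisons called 742 genes, 719 in opposite directions and 23 in the same direction. The 719 are 25.3% of the first list and 56.7% of the second, and the 23 are 0.81% and 1.81%. With 1 sample left out 87 to 601 genes were called in opposite directions and 2 to 22 in the same, and without a variance trend 247 and 8. With the replicate number as a block in the fit 1 gene was called in opposite directions and 0 in the same. Across the 20612 genes tested in both, the log2 fold changes had a Pearson r of -0.44 as a description, and 32.8% of the genes had the same sign. The comparison of MC38-CMAS KO with MC38-MOCK#1 was the less stable: it called 371, 156 and 534 genes without MC38-CMAS KO sample 1, 2 or 3 and 281, 122 and 876 without MC38-MOCK#1 sample 1, 2 or 3.

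**Figure D3:**
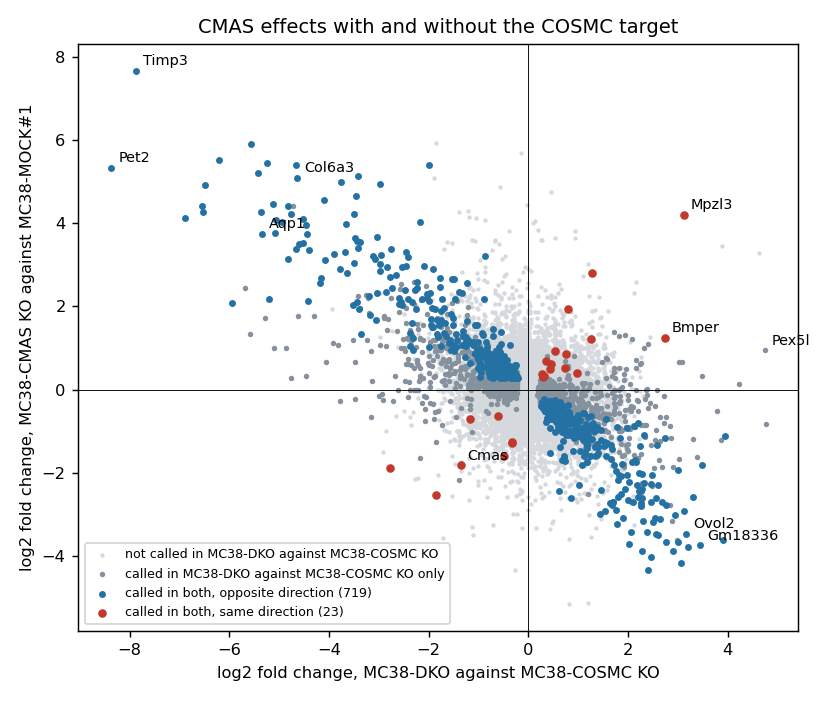
Log2 fold change of each gene in MC38-DKO against MC38-COSMC KO (horizontal axis) and in MC38-CMAS KO against MC38-MOCK#1 (vertical axis), for 20612 genes tested in both. Genes called in both comparisons lay mostly in the upper left and lower right (719, blue) and seldom in the other corners (23, red).

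The difference of both effects was tested directly over the 12 samples, and 4736 of 20612 genes (23.0%) were called, 2382 with a higher and 2354 with a lower estimate in the COSMC-targeted background. The same contrast, with the same sign, is the COSMC effect with the CMAS target minus that without it, so an effect of 1 target that depends on the other cannot be told apart by it from the reverse. The RNA of Cmas and C1galt1c1 does not separate MC38-DKO from MC38-CMAS KO, so an exchange of these labels cannot be told apart from the labelled design. Of the called genes of MC38-DKO against MC38-COSMC KO, 2512 of 2819 (89.1%) were called in the difference, which shares their 6 samples and is therefore not independent of the first call. Timp3 had one of the largest estimates, which is imprecise since 2 of the lines were near 0. MC38-CMAS KO had 957, 1113 and 1186 normalized counts and MC38-MOCK#1 5, 4 and 4, so its log2 fold change was 7.67 in that comparison and -7.88 in MC38-DKO against MC38-COSMC KO (difference -15.55, adjusted p = 5.22e-11). Col6a3 had 3382, 3522 and 3890 against 108, 96 and 110, and Aqp1 had 191, 167 and 151 against 16, 5 and 19. Gm18336 showed the reverse order, with 33, 46 and 44 in MC38-CMAS KO and 675, 559 and 460 in MC38-MOCK#1 (difference 7.19, adjusted p = 1.05e-08), as did Ovol2 at 9, 12 and 24 against 194, 167 and 134 and Ripk3 at 55, 60 and 64 against 350, 378 and 379. For these genes MC38-DKO lay with MC38-MOCK#1, and MC38-COSMC KO with MC38-CMAS KO.

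Of the named class I and interferon genes, some were called in both comparisons and others only in MC38-DKO against MC38-COSMC KO. Nlrc5 had 204, 172 and 167 normalized counts in MC38-CMAS KO and 319, 327 and 420 in MC38-MOCK#1 (-0.96, adjusted p = 0.0132), and Apobec3 had 177, 168 and 152 against 297, 293 and 412 (-0.99, adjusted p = 0.0155). Erap1 was called lower there as well (-0.64), but Tapbpl, Tapbp, Psmb9, Ifi205 and Ifi204 were not (adjusted p = 0.056, 0.0823, 0.166, 0.0729 and 0.101). Cmpk2 was not called either (adjusted p = 0.344), and its 101, 31 and 17 in MC38-CMAS KO overlapped those of both MC38-DKO and MC38-COSMC KO. The limma test of the difference, which shares the samples of both comparisons, called each of these genes. Its adjusted p was 0.000142 for Tapbpl, 0.000626 for Tapbp, 0.00629 for Psmb9, 0.00206 for Ifi205, 0.0022 for Ifi204 and 0.0237 for Cmpk2. The median log2 fold change of the class I list was 0.39 in MC38-DKO against MC38-COSMC KO and -0.57 in MC38-CMAS KO against MC38-MOCK#1, and that of the interferon list 0.61 and -0.89. In MC38-MOCK#1 sample 3 stood apart for the latter, with Ifi204 at 182, 239 and 582.

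Few genes moved the same way in both backgrounds. Cmas itself was among the 23, with a difference of 0.46 that was not called (adjusted p = 0.0668). Trpv2, a cation channel, had 276, 276 and 301 normalized counts in MC38-DKO against 738, 609 and 587, and 202, 178 and 193 in MC38-CMAS KO against 334, 289 and 318. Mpzl3, an adhesion protein of epithelia, had 15, 14 and 10 in MC38-DKO against 0, 1 and 1, and 20, 12 and 22 in MC38-CMAS KO against 0 in every MC38-MOCK#1 sample. Tst, a mitochondrial sulfurtransferase, had 76, 77 and 79 against 30, 29 and 37, and 103, 97 and 76 against 42, 32 and 44 (log2 fold changes 1.25 and 1.21). Cald1, an actin-binding protein, rose by 0.73 and 0.52, and Bmper by 2.74 and 1.24. Col3a1 rose by 1.29 and 2.79, so that it was the only collagen called in both with 1 direction. Pde6d, Dgkd and Usp40, which lie between chr1:86542994 and chr1:88008551 (GRCm38), fell in both, by 0.49, 0.33 and 0.33 in MC38-DKO and by 1.60, 1.27 and 1.29 in MC38-CMAS KO. All of them were highest in MC38-MOCK#1, where Pde6d had 529, 680 and 1171 at passages 4, 5 and 6. Dgkd had means of 1273 in MC38-DKO, 1601 in MC38-COSMC KO, 1644 in MC38-CMAS KO and 4037 in MC38-MOCK#1. The genes of this paragraph, other than Cmas and Bmper, were named after their values were seen. By the test of the difference, 8 of the 23 differed in size between the backgrounds.

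The remaining lines show where the 2838 called genes lay in cells outside the comparison. For each gene the mean log2 value of another line was placed nearer to MC38-DKO or to MC38-COSMC KO. MC38-MOCK#1 was nearer to MC38-DKO for 2439 genes (85.9%), with a median position of 0.852 on a scale from 0 at MC38-COSMC KO to 1 at MC38-DKO. MC38-CMAS KO was nearer to MC38-DKO for 24.6% and the parental MC38-WT for 25.5%. MC38-MOCK#2, the control of a gene activation system (dCas-VPR), had 42.2%, and MC38-FUT4 and MC38-FUT9, in which that system targets a fucosyltransferase gene, had 47.3% and 18.0%. The untargeted lines MC38-MOCK#1, MC38-MOCK#2 and MC38-WT therefore did not share a position. Over all alternative settings the share of MC38-MOCK#1 ran from 83.1% to 89.6% and that of MC38-CMAS KO from 20.4% to 27.1%.

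**Figure D4:**
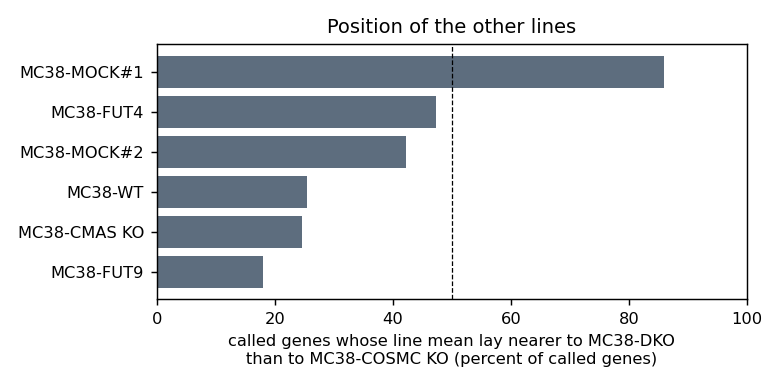
Share of the 2838 called genes whose mean in each of the 6 other lines lay nearer to MC38-DKO than to MC38-COSMC KO, in percent, with 50% as a dashed line. MC38-MOCK#1 (85.9%) lay above that line and the other 5 below it.

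The called genes were unevenly spread over the genome. Among 13506 genes with a mean of at least 10 normalized counts 19.6% were called, with a median log2 fold change of 0.001. On chromosome 10 it was 41.9% of 651 genes, 258 lower and 15 higher, with a median of -0.34, and each of its 12 windows of 10 Mb with at least 20 genes had a median below 0. Chromosome 15 had 140 lower and 20 higher of 486 (median -0.21). Chromosome 2 had 258 higher and 35 lower of 1110 (median 0.20), and chromosome 13 had 133 higher and 38 lower of 546 (median 0.18). Chromosome 14 changed within itself, from a median of -0.55 between 40 and 50 Mb, where 21 of 36 genes were lower and 0 higher, to 0.35 between 60 and 70 Mb, where 25 of 53 were higher and 1 lower. In MC38-CMAS KO against MC38-MOCK#1 these windows had medians of 0.46 and -0.24. When the median of each chromosome was removed from each sample, an alternative added after the data were seen, 2201 genes were called, of which 1884 were among the 2838. Of 12 called named genes on chromosome 10, 6 lost their call. Timp3 (-7.48), Col6a1 (-4.80) and Col6a2 (-4.22) kept theirs. No measure of DNA copy number was analysed here.

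**Figure D5:**
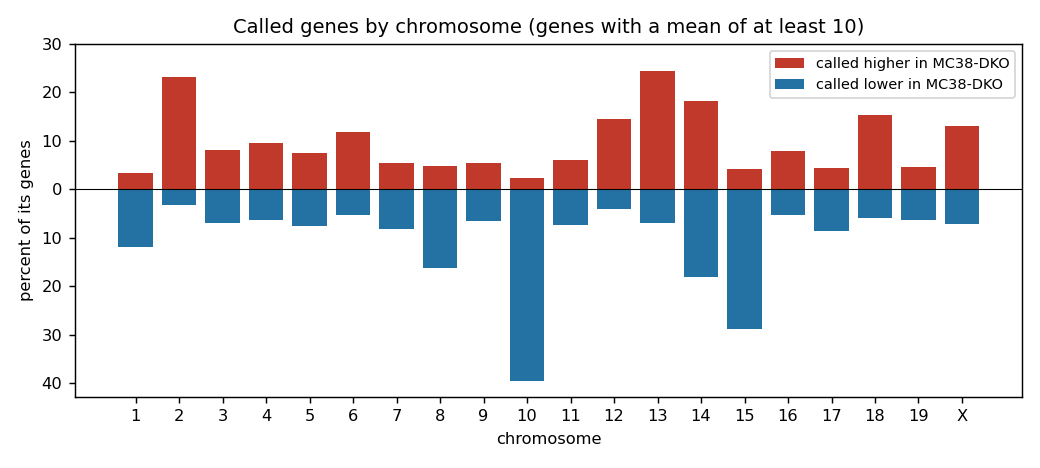
Percent of the genes of each chromosome (mean of at least 10 normalized counts) that were called higher (up) or lower (down) in MC38-DKO than in MC38-COSMC KO. Chromosomes 10 and 15 (258 of 651 and 140 of 486 lower) and chromosomes 2 and 13 (258 of 1110 and 133 of 546 higher) stand out.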

How the data were processed

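RNA of MC38-DKO, MC38-COSMC KO, MC38-CMAS KO and MC38-MOCK#1 was sequenced from a stranded library of polyadenylated RNA, 3 samples per line. The authors trimmed reads with Sickle, aligned them to GRCm38 with HISAT2 2.0.4, sorted them with SAMtools 0.1.19 and counted them per gene with featureCounts of Subread 1.5.0-p3, leaving out reads that overlap more than 1 gene. They normalized the counts with edgeR 3.18.1. The deposited values are treated here as a score: they are the authors' per-gene counts multiplied by 1 factor per library (library size and TMM) and rounded, not raw counts, and no count model was run on them. The strand setting of the counting is not given in the sources used here.

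Genes with at most 4 zeros among the 6 samples were tested with limma 3.58.1 (R 4.3.3; lmFit, eBayes with trend) on log2(value + 1), two-sided, with Benjamini-Hochberg adjustment over all genes tested. Figures were drawn with matplotlib 3.10.9 in Python 3.11.15 and tables joined with pandas 2.3.3, and the fit was tested on simulated data. Reads per library were estimated from the steps between low values, with an estimator that was revised after the values were seen, and they set a floor of 3 reads per library for genes at 0 in a line. All 24 value columns of the table were matched to samples, and 0 were unused.

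The genes named are Cmas, C1galt1c1 and C1galt1, the 12 largest changes of called protein-coding genes in each direction with no overlap and a mean of at least 50 in the higher line, the 4 largest called changes of each list (for a list with no call, its 2 most abundant genes), and the 5 largest estimates of the difference in each direction. Some genes that this rule selects are not reported here. The comparison and the lists were chosen with earlier results of these data known. Plaur, Cdh2, B2m, Bst2, H2-K1, H2-D1, Calr and Ccl2 were named after their values were seen. Alternatives were another pseudocount, filter, scaling or variance moderation, all 8 lines in a single fit, the replicate number as a block, a fold change limit, single samples left out and chromosome medians removed.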

Additional observations from a re-analysis of the deposited data

Results flagged for a closer look

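The effect of the CMAS target with the COSMC target was tested against that without it over 12 samples with limma, and 4736 of 20612 genes differed at an adjusted p below 0.05. Of the 99 called genes named from the gene lists, 93 were among them. The estimates that follow are differences of log2 fold changes, each with an adjusted p below 0.05, and a positive value means that MC38-DKO against MC38-COSMC KO was the higher of both.

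Among the largest gains the difference was 3.80 for Pex5l, 5.07 for Kcnj2, 5.08 for Plscr2, 5.30 for Ass1, 7.19 for Gm18336 and 6.64 for Ovol2. It was 6.04 for 2900026A02Rik, 6.60 for Sphk1, 5.96 for Tfr2, 4.02 for Qrfp, 6.44 for Pdpn and 5.53 for Col4a6. In Pex5l the estimate came from MC38-DKO against MC38-COSMC KO, since MC38-CMAS KO had 22 in every sample and MC38-MOCK#1 had 9, 20 and 7.

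Among the largest losses the difference was -15.55 for Timp3, -13.71 for Pet2, -11.41 for Colec12, -11.01 for Sorcs2 and -10.98 for Stxbp2. It was -10.63 for Itgb8, -9.65 for Arsj, -9.10 for Aqp1, -8.13 for Hspa12b, -8.04 for Pacs1 and -6.93 for Sulf2. Timp3, Pet2, Colec12, Sorcs2, Stxbp2, Itgb8 and Arsj had means of at most 4.33 normalized counts in both MC38-DKO and MC38-MOCK#1, so the sizes of their differences depend on the 1 added before the logarithm and give no order among them. For Pet2, MC38-CMAS KO had 133, 122 and 126 normalized counts and MC38-MOCK#1 had 7, 1 and 1. C1galt1c1, the COSMC gene, had a difference of 0.73 (adjusted p = 0.0198), since it was lower by 0.39 on the log2 scale in MC38-CMAS KO than in MC38-MOCK#1, a change that was not called, and higher by 0.34 in MC38-DKO, which was not called either.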

How the results depend on the processing

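Of the named genes called in MC38-DKO against MC38-COSMC KO, 0 of 119 reversed under any alternative. In limma fits that left out 1 sample 70 kept their call in all 6 and 49 lost it in at least 1, and 38 lost it without a variance trend. The number of called genes ran from 1050 to 2154 with 1 sample left out. It was 1238 (501 higher, 737 lower) without a variance trend, of which 1075 were among the 2838, and 794 with an absolute log2 fold change above 1. Scaling to the same total gave 2992 genes, 1681 higher and 1311 lower. Other pseudocounts, filters and scalings gave 2783 to 3200 genes, and all 8 lines in a single fit gave 3218. In MC38-CMAS KO against MC38-MOCK#1, 122 to 876 genes were called with 1 sample left out, 2207 in the fit of all 8 lines, 726 without a variance trend and 580 with the fold change limit. The difference of both effects was called for 3947 to 4699 genes with 1 sample left out and for 1954 with the fold change limit. Genes called in both comparisons in opposite directions numbered 87 to 601 with 1 sample left out, 1164 in the fit of all 8 lines, 247 without a variance trend and 266 with the fold change limit, and those in the same direction 2 to 22, 32, 8 and 7. The fits without a sample had fewer samples, and the cause of the other shifts was not tested.

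The replicate number, which is also the passage, was not taken to pair the samples, since the correlation of deviations from the line means between same-numbered MC38-DKO and MC38-COSMC KO samples was 0.112, -0.0253 and 0.174 over 13515 genes, and samples did not all correlate best with their own number. With the replicate block 2292 genes were called in MC38-DKO against MC38-COSMC KO, 1990 of them among the 2838, and 22 of the 119 named genes lost their call. In MC38-CMAS KO against MC38-MOCK#1 1 gene was called with the block, with 3960 at an unadjusted p below 0.05, so that 1 gene was called in both comparisons in opposite directions and limma called 0 in the same direction. The difference was called for 4866 genes with the block. With the block 12 interferon-stimulated genes were called, all higher, and 14 genes of the MAPK list, 4 higher and 10 lower.

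MC38-DKO sample 1 had the fewest reads, and genes near 1 read in a line have no measurable fold.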
